A study of Mus musculus with 2 samples.

Results

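The cells described here are periosteal cells of the Prrx1 lineage that carried the RNA of mitosis when they were captured. They numbered 379 of 2221 lineage cells in the uninjured library and 754 of 3606 at day 3, in all 1133 of 5827 lineage cells and of 20905 deposited barcodes. They were chosen by a measured score. A lineage cell had at least 3 UMIs (unique molecular identifiers, each standing for 1 captured RNA molecule) of the reporter EGFP, at least 5 EGFP UMIs per 10000, and fewer than 3 UMIs per 10000 of the macrophage genes C1qa, C1qb and C1qc together. A dividing cell was a lineage cell in which 15 mitotic genes (Mki67, Top2a, Cdk1, Ccnb1, Ccnb2, Ccna2, Birc5, Aurka, Aurkb, Plk1, Cenpa, Cenpf, Tpx2, Ube2c and Cdc20) made up at least 20 of every 10000 UMIs. The comparison cells were lineage cells of the same library with fewer than 2 per 10000, 1063 uninjured and 1556 at day 3. Another 779 and 1296 lineage cells lay between the limits.

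The study asked how skeletal progenitors of the periosteum, the cell layer around bone, answer a fracture. All cells came from Prx1Cre;mTmG mice, in which Cre driven by a Prrx1 enhancer switches a cell and its descendants from membrane tdTomato to membrane EGFP, so that EGFP marks descent and not present Prrx1 expression. The uninjured library (day 0) and the library of day 3 after tibial fracture each stand for 1 condition, and the labels give neither age nor the number of mice. Both went through explant culture, which the labels' protocol describes as growth to 80% confluence at 33 °C in medium with 20% serum, 1% antibiotics and 10 ng/mL bFGF, a mitogen, whereas the design text says without expansion. Library, mice and condition therefore cannot be told apart, there was no replicate, and no test across samples was possible. Every 95% interval below covers counting error only.

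A dividing cell copies its DNA in S phase, condenses and aligns its chromosomes, and then pulls them apart and pinches into daughter cells. Transcription follows this course. E2F factors switch on the replication genes at the entry to S phase, and the MuvB complex with B-Myb and FoxM1 switches on the genes of mitosis later. In resting cells the same MuvB core sits in the DREAM complex and keeps these genes off, through a promoter element called the cell cycle genes homology region (CHR), while CCAAT boxes bind the activator NF-Y. In fracture repair, progenitors of the periosteum multiply before they form cartilage and bone.

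Upstream sequences of 6 of the genes that chose the cells are shown because these elements recur in them. Mki67 encodes the Ki-67 protein that coats mitotic chromosomes, Top2a the topoisomerase that untangles them, Cdk1 the kinase that starts mitosis and Plk1 a kinase of the spindle poles. Ccnb2 encodes a B-type cyclin that activates Cdk1, and Cdc20 an activator of the ubiquitin ligase that ends mitosis. The windows lie at chr7:135716380-135716549 on the minus strand, chr11:99024190-99024359 on the minus strand, chr10:69352939-69353082 on the minus strand, chr7:122159265-122159434 on the plus strand, chr9:70421555-70421724 on the minus strand and chr4:118437353-118437513 on the minus strand (RefSeq starts, build GRCm38.p6). Each begins 170 bases upstream of the annotated start and ends at the start, or before an annotated exon that reaches upstream of it. The Plk1 window overlaps an exon of the antisense noncoding gene Gm15489. Capitals mark CHR matches, CCAAT boxes and an E2F-like match in Cdk1, on either strand. The CHR search used the letters TTTGAA. A variant with A in place of the G was also counted, and a CCAAT box on the opposite strand reads ATTGG.
Mki67: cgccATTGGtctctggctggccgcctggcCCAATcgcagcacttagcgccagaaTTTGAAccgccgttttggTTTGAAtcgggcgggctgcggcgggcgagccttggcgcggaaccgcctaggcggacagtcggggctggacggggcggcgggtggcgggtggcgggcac
Top2a: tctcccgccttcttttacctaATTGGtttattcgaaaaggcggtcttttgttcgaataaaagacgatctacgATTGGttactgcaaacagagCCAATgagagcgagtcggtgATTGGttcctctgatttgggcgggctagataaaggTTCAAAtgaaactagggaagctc
Cdk1: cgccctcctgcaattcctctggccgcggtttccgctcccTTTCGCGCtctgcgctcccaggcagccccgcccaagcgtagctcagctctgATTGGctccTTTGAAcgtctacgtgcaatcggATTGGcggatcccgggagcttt
Plk1: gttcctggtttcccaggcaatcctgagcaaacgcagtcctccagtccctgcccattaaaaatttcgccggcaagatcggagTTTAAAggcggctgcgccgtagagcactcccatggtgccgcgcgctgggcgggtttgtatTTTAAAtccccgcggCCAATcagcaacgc
Ccnb2: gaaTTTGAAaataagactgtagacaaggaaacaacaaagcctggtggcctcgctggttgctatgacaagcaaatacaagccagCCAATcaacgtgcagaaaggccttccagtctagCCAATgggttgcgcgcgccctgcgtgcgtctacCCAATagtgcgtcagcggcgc
Cdc20: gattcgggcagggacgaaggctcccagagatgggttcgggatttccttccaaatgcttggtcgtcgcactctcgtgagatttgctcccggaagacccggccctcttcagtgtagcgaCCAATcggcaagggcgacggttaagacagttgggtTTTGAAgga

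The table of promoters held 12 of the 15 genes, all but Ccna2, Aurkb and Tpx2. Over the 250 bases upstream of the start, a CHR match stood in 11 of 12 (91.7%), against 25.5% of 27025 genes in the table. A CCAAT box stood in 11 of 12, against 34.5%, and both together in 10 of 12 (83.3%), against 2431 of all 27025. Aurka held no CHR match and Birc5 no CCAAT box. E2F-like letters (TTTCGCGC, TTTCCCGC, TTTGGCGC or TTTGGCGG) stood in 1 of 12, against 2.00% of all genes. Among the replication genes described below, E2F-like letters stood in 9 of 27 promoters (33.3%) and a CHR match in 4 of 27 (14.8%). A CCAAT box stood in 19 of these 27 (70.4%). The other lists of mitotic genes held fewer CHR matches than the 12 genes. Matches stood in 3 of 18 checkpoint and kinase genes (16.7%) and 10 of 27 spindle genes (37.0%). Among condensin, cohesin and chromatin genes they stood in 8 of 16. The checkpoint share was thus close to the replication share, and both lay below the 25.5% of all genes. A match describes the letters and is no evidence that a factor binds there.

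The uninjured library was smaller and deeper per barcode (4573 barcodes, median 19366 UMIs) than that of day 3 (16332 barcodes, median 7030), and 4337 and 11952 barcodes passed the filters. Within the lineage the depths were closer, with medians of 31413 UMIs in uninjured and 37654 in day-3 dividing cells. The libraries shared 3 barcode sequences. Clusters of lineage cells led by myeloid genes (cluster 6 uninjured with Acp5 and Mmp9, and at day 3 cluster 4 with Lyz2 and Ctss, cluster 8 with Acp5 and Mmp9 and cluster 9 with Ngp and S100a8) stood apart from the rest and held 10 and 114 of the dividing cells. Counts are for all cells unless these clusters are said to be left out.

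Dividing cells made up 17.1% of uninjured lineage cells (exact Clopper-Pearson 95% interval 15.5 to 18.7) and 20.9% at day 3 (19.6 to 22.3). These intervals cover the counting of cells in each library and do not test a difference between conditions. Without the clusters led by myeloid genes the shares were 17.3% and 21.5%. When every cell was thinned to 3000 UMIs and classed again, the shares were 19.3% (311 of 1609 cells) and 23.5% (690 of 2935). After thinning, the minimum of 3 EGFP UMIs equals 10 per 10000, so thinning also raised the EGFP limit. With that EGFP limit alone and no thinning the shares were 18.3% and 21.8%. The uninjured library held male cells and the day-3 library cells of both sexes, called from Y-linked genes and Xist. Among cells called male the shares were 17.3% (15.3 to 19.3) and 18.3% (14.8 to 22.3), and among female cells of day 3 the share was 22.4% (20.7 to 24.1). The part of the sexes in the difference was not tested. Macrophages of the same libraries, defined by at least 10 C1q UMIs and fewer than 2 EGFP UMIs per 10000, were dividing by the same score in 24.9% and 20.9% of 985 and 3827 cells.

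**Figure D1:**
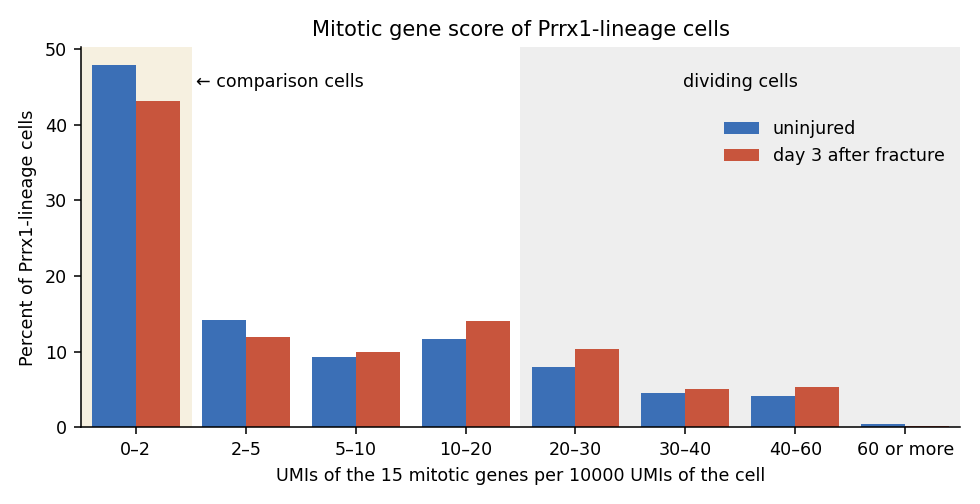
Percent of Prrx1-lineage cells (vertical axis) in 8 ranges of the mitotic gene score, the UMIs of the 15 genes per 10000 UMIs of the cell (horizontal axis), for the uninjured library (blue, 2221 cells) and day 3 (red, 3606 cells). Cells below 2 are the comparison cells and cells at 20 or more the dividing cells; the ranges between them are filled in both libraries, with no gap at the limit.

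The score was continuous across the limit of 20. Just outside it, between 18 and 20 per 10000, lay 42 uninjured and 93 day-3 cells, and just inside, between 20 and 22, lay 43 and 94. Top2a stood at 246 CPM (counts scaled to a common total of UMIs in each class of cells) just outside and 182 CPM just inside in uninjured cells, and at 245 and 251 CPM at day 3. Ccnb1 stood at 62.4 and 84.7 CPM, and at 69.2 and 79.4 CPM. Top2a was lower just inside than just outside in uninjured cells and Ccnb1 higher in both libraries. The class is a range of a continuous score and not a separate type.

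By construction the 15 genes were far higher in dividing than in comparison cells, summing to 3500 against 90.7 CPM uninjured and 3383 against 78.9 CPM at day 3. A median of 14 of the 15 genes was seen in an uninjured dividing cell and all 15 in a day-3 one, against 2 in comparison cells. Mki67 stood at 118 against 2.86 CPM uninjured and 222 against 2.15 CPM at day 3. Plk1 was at 118 against 1.84 CPM and 100 against 0.84 CPM, Cdk1 at 261 against 11.0 CPM and 265 against 11.3 CPM, and Top2a at 263 against 6.31 CPM and 439 against 7.28 CPM. Mki67 and Top2a were thus higher in the dividing cells of day 3 than in those of the uninjured library, Cdk1 similar and Plk1 lower. Cdc20, Cenpa and Ccnb2 were also lower at day 3. Between scores of 20 and 30, Cdc20 stood at 229 CPM uninjured and 119 CPM at day 3. Cenpa stood there at 298 and 203 CPM, and Ccnb2 at 117 and 65.7 CPM. The sums of the 15 genes were close, so these differences describe the mix of genes within the score. These values chose the cells and are a description. A 3' count depends on the gene, so levels are compared between cells and not between genes.

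The reporter and lineage genes were present in dividing cells. EGFP, which the choice of lineage cells used, stood at 3092 CPM in dividing and 2130 CPM in comparison cells of the uninjured library, and at 1983 and 1637 CPM at day 3. Prrx1, the limb mesenchyme transcription factor, was at 425 and 356 CPM uninjured and 577 and 548 CPM at day 3, and Pdgfra, a growth factor receptor of mesenchymal progenitors, at 42.7 and 74.8 CPM and 56.6 and 57.2 CPM. tdTomato, the reporter of cells without Cre activity, gave 1 to 6 UMIs in each class. Macrophage markers summed to 385 CPM in dividing and 436 CPM in comparison cells uninjured and to 376 and 370 CPM at day 3, against 20213 and 11565 CPM in the dividing macrophages. All 10 of these markers were above 0 in dividing lineage cells of both libraries, and none of those at 10 CPM or more (5 and 6) differed 2-fold.

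Dividing cells gave more RNA per cell. Their median was 31413 UMIs and 5141 genes per cell uninjured, against 22230 and 4246 in comparison cells. At day 3 the medians were 37654 UMIs and 6034 genes, against 33574.5 and 5492.5. Mitochondrial RNA was slightly lower in dividing cells, at medians of 2.31% against 2.70% and 4.28% against 4.57%. Doublet scores among the highest of their library were held by 0.792% of dividing and 0.753% of comparison cells uninjured, and by 9.15% and 5.21% at day 3. The part of depth and doublets in each result was not tested beyond the recounts given with it.

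Across all genes, 478 of 7576 (6.31%) were at least 2-fold higher in uninjured dividing cells and 253 (3.34%) at least 2-fold lower, at 10 CPM or more in the higher class and leaving out the 15 genes. At day 3, 455 of 8128 (5.60%) were higher and 128 (1.57%) lower. These shares over all genes are the background for the counts of each list below. Without the clusters led by myeloid genes the counts were 489 and 256 uninjured, and 470 and 147 at day 3. Of the higher genes 349 were shared, 73.0% of the uninjured and 76.7% of the day-3 list, and 114 of these belonged to the cell cycle lists. Of the lower genes 45 were shared, 17.8% and 35.2% of the lists, while 127 of the genes lower in the uninjured library were under 10 CPM at day 3. No gene was 2-fold higher in one library and 2-fold lower in the other. Over 7092 genes the log2 ratios of the 2 libraries had a Pearson r of 0.909, and 0.865 over the 6939 genes outside the cell cycle lists; genes are not independent replicates, and both ratios compare cells split by the same score.

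**Figure D2:**
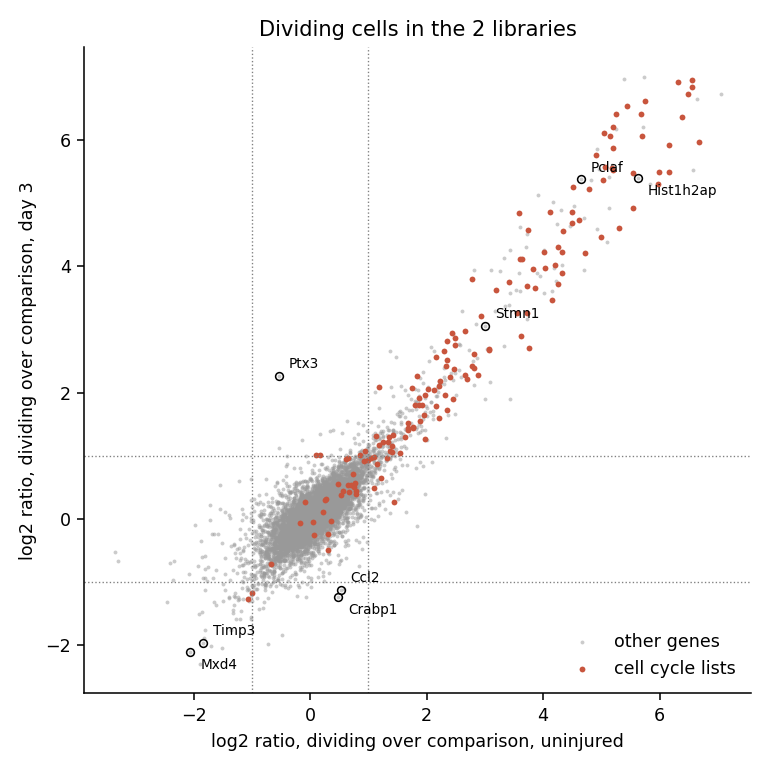
Each point is 1 of 7092 genes; the axes give the log2 ratio of CPM in dividing over comparison cells, uninjured (horizontal) and day 3 (vertical), with dotted lines at 2-fold. Most genes of the cell cycle lists (red) lie toward the upper right in both libraries, Mxd4 and Timp3 are low in both, and Ptx3, Ccl2 and Crabp1 lie off the diagonal.

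Apart from the 15 genes that chose the cells, the spindle list had the highest median ratio of the lists in both libraries. All 30 spindle and kinesin genes at 10 CPM or more were at least 2-fold higher in uninjured dividing cells, with a median log2 ratio of 5.20, and all 31 were at day 3, with a median of 5.31, while the median over all genes was 0.07 and 0.09. Hmmr, which binds spindle microtubules, stood at 85.2 against 0.902 CPM uninjured, 94.5-fold higher (62.7 to 150), and at 135 against 1.17 CPM at day 3, 115-fold higher (90.5 to 149). Nusap1, which bundles microtubules near chromosomes, was at 88.4 against 0.941 CPM and 77.8 against 0.63 CPM. The smallest ratios were those of Ckap5, a microtubule polymerase, 3.94 (3.42 to 4.55) and 3.90 (3.67 to 4.15), and of the centromere protein gene Cenpw, 5.64 and 6.76.

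Checkpoint and mitotic kinase genes followed. Of 22 genes, 21 were at least 2-fold higher in each library, with medians of 3.94 and 4.53 on the log2 scale. Nek2, a kinase that separates centrosomes, stood at 32.0 against 0.314 CPM uninjured, 102-fold higher (51.3 to 238, with 8 UMIs in comparison cells), and at 30.9 against 0.49 CPM at day 3, 63.0-fold higher (43.3 to 95.3). Cdc25c, the phosphatase that activates Cdk1, was 79.7-fold (41.5 to 176) and 121-fold (63.1 to 265) higher. Bub3 of the spindle checkpoint was 2.63-fold and 2.23-fold higher. The exception was Pttg1, which encodes securin, the inhibitor of sister chromatid separation. It stood at 46.6 against 36.3 CPM uninjured and 26.0 against 26.5 CPM at day 3, a ratio of 0.98 (0.898 to 1.07).

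Among 22 genes of condensin, cohesin and chromatin, 21 and 20 were at least 2-fold higher, with medians of 2.12 and 2.08. The condensin subunits led. Ncapg stood at 27.0 against 0.823 CPM uninjured and 58.6 against 1.42 CPM at day 3, and Smc2 at 174 against 9.13 CPM and 209 against 15.9 CPM. Hmgb2, a chromatin protein, was at 528 against 39.4 CPM uninjured and 503 against 21.1 CPM at day 3. The cohesin subunit Smc3 was 2.06-fold (1.89 to 2.24) and 1.95-fold (1.86 to 2.05) higher, and the histone variant gene H2afv 1.57-fold and 1.96-fold, values on either side of the 2-fold limit.

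Replication genes were higher in smaller measure. Of the 30 licensing and fork genes at 10 CPM or more, 28 were at least 2-fold higher uninjured and 26 at day 3, with medians of 1.95 and 1.76. Clspn, which holds the checkpoint at the replication fork, was 12.4-fold (9.37 to 16.7) and 17.4-fold (14.1 to 21.6) higher, the polymerase gene Pole 12.3-fold and 7.42-fold, and the primase gene Prim1 6.83-fold and 14.0-fold. Cdt1, which loads the replicative helicase in G1, stood at 12.4 against 4.59 CPM uninjured and 13.7 against 11.4 CPM at day 3. Slbp, which binds histone mRNA, was 1.58-fold and 1.34-fold higher.

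Among 20 nucleotide synthesis genes, 9 and 11 were at least 2-fold higher, against 6.31% and 5.60% of all genes, and none was lower. Thymidine kinase Tk1 stood at 217 against 9.64 CPM uninjured and 102 against 3.97 CPM at day 3, 22.5-fold and 25.7-fold higher. The ribonucleotide reductase subunit Rrm2 was 8.40-fold and 6.46-fold higher. The purine enzymes Paics (1.20 and 1.25) and Impdh2 (1.44 and 1.29) did not pass 2-fold. The folate enzyme Mthfd2 stood at 122 against 108 CPM uninjured and at 83.5 against 41.3 CPM at day 3, a ratio of 2.02 that did not pass 2-fold with TMM scaling or matched clusters, or in male cells. Of the DNA repair genes at 10 CPM or more, 6 of 7 and 6 of 9 were at least 2-fold higher. Exo1, a nuclease that resects DNA ends, stood at 10.8 against 0.665 CPM at day 3, 16.3-fold higher (11.6 to 23.4). Atr, the checkpoint kinase of stalled forks, was 1.54-fold and 1.92-fold higher. The mismatch repair gene Msh6 was 1.44-fold (1.25 to 1.66) higher at day 3.

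The regulators of this program were less uniform. Of the E2F, FoxM1 and DREAM genes at 10 CPM or more, 5 of 9 and 6 of 14 were at least 2-fold higher. Over all genes 6.31% and 5.60% were. Foxm1 stood at 22.4 against 1.37 CPM uninjured and 39.4 against 2.52 CPM at day 3, 16.3-fold (11.5 to 23.9) and 15.6-fold (13.1 to 18.7) higher. Mybl2, which encodes B-Myb, was 20.1-fold and 14.8-fold higher. The DREAM subunit gene Lin37 had ratios of 1.16 and 1.08, and the E2F partner Tfdp2 1.20 and 1.24, far below those of Foxm1 and Mybl2.

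G1 cyclins and CDK inhibitors went in both directions, 3 higher and 2 lower of 16 in each library, with medians of 0.09 and 0.11. Over all genes 6.31% and 5.60% were higher, and 3.34% and 1.57% lower. The lower genes were Cdkn1c and Cdkn2a uninjured, and Ccnd2 and Cdkn2a at day 3. Cyclin D2 (Ccnd2) stood at 326 CPM in dividing and 650 CPM in comparison cells uninjured, a ratio of 0.501 (0.483 to 0.518), and at 282 and 639 CPM at day 3, 0.441 (0.431 to 0.452). Cdkn2a, which encodes the inhibitors p16 and p19Arf, was at 122 and 256 CPM and at 135 and 326 CPM, ratios of 0.476 (0.45 to 0.503) and 0.415 (0.401 to 0.43). It no longer passed 2-fold in either library with comparison cells weighted to the dividing cells' shares of clusters (matched clusters). Cdkn1c, which encodes p57, was at 9.42 and 44.0 CPM uninjured and below 2 CPM in both classes at day 3. Cdkn2d, the gene of the p19Ink4d inhibitor, was 4.64-fold (4.16 to 5.19) and 4.29-fold (3.86 to 4.78) higher. Cdkn1a, the p53-induced inhibitor p21, stood at 420 in dividing and 399 CPM in comparison cells uninjured and at 358 and 428 CPM at day 3.

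A few of the genes linked to rest and stress were lower in dividing cells, Mxd4 most of all. Mxd4, a Max partner that opposes Myc, was the gene with the lowest ratios of the quiescence and FOXO list in both libraries, at 27.9 against 116 CPM uninjured, a ratio of 0.241 (0.215 to 0.269), and at 16.2 against 69.8 CPM at day 3, 0.232 (0.21 to 0.255). Sesn3, a FOXO target, had ratios of 0.412 and 0.333. Of the 14 genes of that list at 10 CPM or more, 3 and 2 were at least 2-fold lower, against 3.34% and 1.57% of all genes. Another 1, Cdkn1b (p27), was 2.01-fold higher at day 3, where 5.60% of all genes passed 2-fold. Cdkn1b no longer passed with TMM scaling. Gas1 had ratios of 0.496 uninjured, which no longer passed 2-fold with matched clusters or depth, and 1.55 at day 3. Of 13 p53 target genes, 2 and 1 were at least 2-fold lower, against 3.34% and 1.57% of all genes, and none was higher. Trp53inp1 had ratios of 0.407 and 0.443, and Gadd45a 0.455, lost with matched clusters, and 0.529.

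Genes of growth and of the cytoskeleton had smaller ratios. All ribosome biogenesis genes at 10 CPM or more (18 and 20) had ratios above 1, with medians of 0.75 and 0.80 on the log2 scale. Of these, 5 and 3 passed 2-fold, against 6.31% and 5.60% of all genes. Nucleolin (Ncl) stood at 719 against 354 CPM and 1243 against 610 CPM, just past 2-fold and no longer so with matched clusters, and dyskerin (Dkc1) was 2.94-fold and 2.20-fold higher. Among 18 tubulin and actin genes, 6 and 3 passed 2-fold, led by Stmn1, which releases tubulin from microtubules, at 417 against 52.0 CPM and 230 against 27.7 CPM, with Tuba1b 3.58-fold and 2.74-fold higher and Tubb4b 5.05-fold and 2.42-fold. Vimentin (Vim) had ratios of 0.92 and 0.808. Immediate-early and ERK feedback genes had medians near 0, with Etv4 (2.84 uninjured, 1.25 at day 3) and Fosl1 (2.06 and 1.64) above the others. Fosl1 lost 2-fold with matched clusters or depth, and Dkc1 at day 3 with matched clusters. No glycolysis or cholesterol synthesis gene passed 2-fold in either library.

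**Figure D3:**
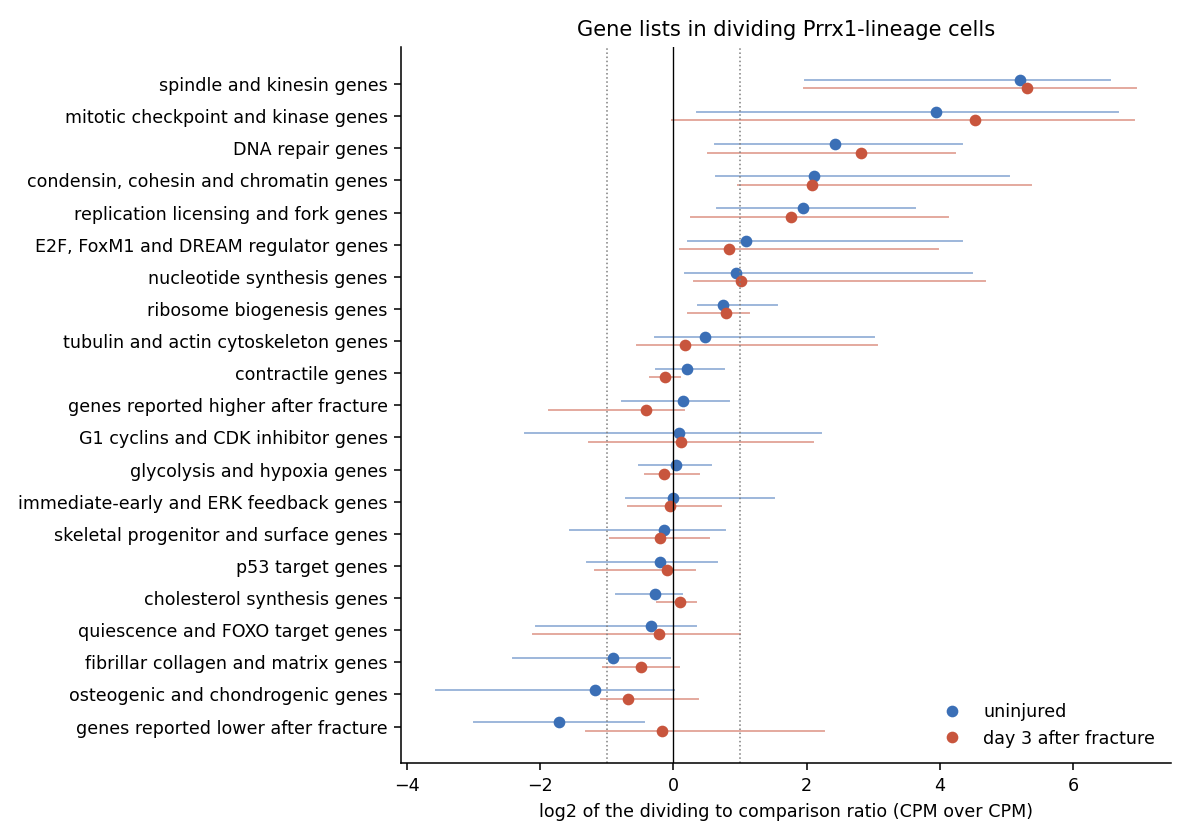
Median log2 ratio of CPM in dividing over comparison cells (points) and the range from the lowest to the highest gene (lines) for 21 gene lists, genes at 10 CPM or more, uninjured in blue and day 3 in red; dotted lines mark 2-fold. Spindle genes lie highest, near 5 in both libraries, and the matrix and osteogenic lists and the genes lower after fracture lie below 0, farther so in the uninjured library.

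Outside the cell cycle lists, the histone gene Hist1h2ap led the genes named for the highest ratios in both libraries, at 395 against 7.96 CPM uninjured and 257 against 6.05 CPM at day 3, 49.6-fold (43.1 to 57.3) and 42.5-fold (38.1 to 47.4) higher. Polyadenylated histone RNA is what a 3' assay primed on poly(A) can see, and histone gene copies are nearly alike, so this value is uncertain between copies. Pclaf, a PCNA-binding factor, stood at 440 against 17.5 CPM and 280 against 6.74 CPM. Pimreg (31.1 and 46.9), Dbf4, the activator of the Cdc7 kinase (13.2 and 8.95), and the noncoding RNA Lockd (10.7 and 19.1) followed. Tmpo and Rangap1 of the nuclear envelope and pore, the importin Kpna2, the histone chaperone Dnajc9 and the histone acetyltransferase Hat1 had ratios between 4.20 and 8.54.

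The lowest ratios shared by the libraries, among genes at 50 CPM or more, included those of Mxd4, given above, and Timp3. Timp3, an inhibitor of matrix metalloproteinases, stood at 167 in dividing and 596 CPM in comparison cells uninjured, a ratio of 0.28 (0.267 to 0.293), and at 138 and 536 CPM at day 3, 0.257 (0.248 to 0.265). Meg3, an imprinted noncoding RNA, had ratios of 0.427 and 0.413. Fibronectin (Fn1) was at 706 and 1402 CPM and at 962 and 1993 CPM. Serpine2 (0.293 and 0.505), Gpx3 (0.285 and 0.523), Dcn (0.315 and 0.524), Rnase4 (0.476 and 0.462) and the nuclear noncoding RNA Neat1 (0.452 and 0.502) were lower in both, not all of them past 2-fold at day 3. With comparison cells weighted to the dividing cells' shares of clusters, Fn1 and Meg3 no longer passed 2-fold at day 3, nor Rnase4 uninjured. With matched depth Meg3, Dcn and Rnase4 no longer passed uninjured. Mxd4 and Timp3 passed in both libraries under every alternative run.

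Several replication genes were highest below the limit. In uninjured cells Mcm5, a helicase subunit, stood at 5.57 CPM below a score of 2, at 48.1 CPM between 5 and 10, at 62.3 CPM between 10 and 20, and at 28.1 CPM from 40 on. At day 3 the same ranges held 8.52, 47.3, 62.9 and 30.9 CPM. Cyclin E2 (Ccne2), which drives entry into S phase, was at 33.4 CPM between 10 and 20 and at 7.23 CPM between 30 and 40, and at 37.4 and 6.19 CPM at day 3. Pcna ran from 15.6 CPM below 2 to 81.8 CPM between 10 and 20, and from 17.7 to 58.3 CPM at day 3. Cdt1 was highest between 5 and 10, at 26.6 and 30.2 CPM. These 4 genes were thus highest in cells between the limits in both libraries, and the dividing cells as defined lie toward the mitotic end of the score.

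Mxd4 and Ccnd2 were already lower in the ranges just below the limit than below 2. Mxd4 in uninjured cells stood at 116 CPM below 2, 64.8 CPM between 5 and 10, 38.9 CPM between 10 and 20 and 23.7 CPM between 30 and 40, and at 34.1 CPM from 40 on. At day 3 it stood at 69.8, 41.3, 25.7, 16.2 and 14.2 CPM. Ccnd2 ran from 650 to 346 CPM between the first range and that of 10 to 20, and from 639 to 352 CPM at day 3. Most of the difference in Ccnd2 was therefore present in cells below the limit, and above it Ccnd2 stayed between 307 and 349 CPM uninjured.

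**Figure D4:**
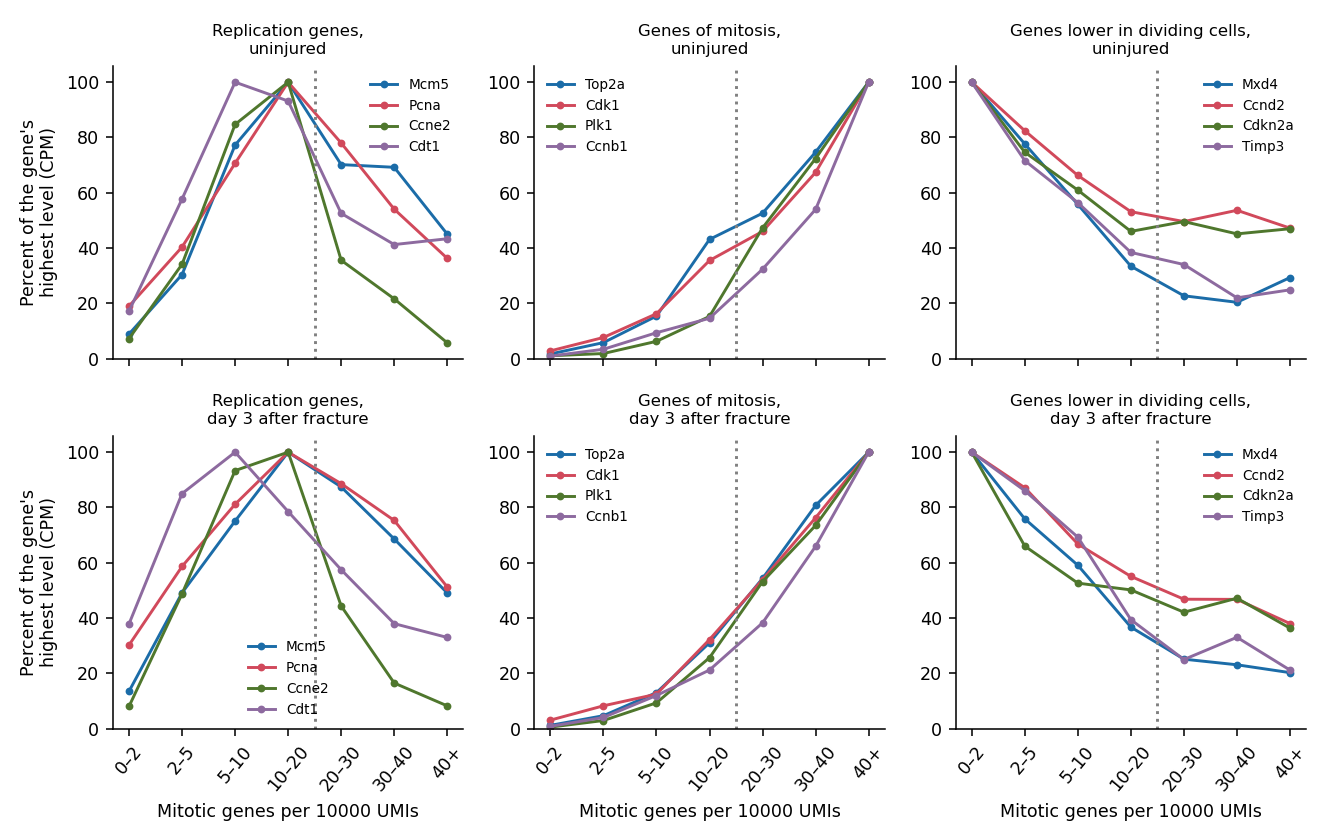
Level of 12 genes (vertical axis, percent of the highest CPM of that gene in that library) in 7 ranges of the mitotic gene score (horizontal axis, UMIs per 10000), uninjured above and day 3 below; the dotted line marks the limit of 20 for dividing cells. Mcm5, Pcna, Ccne2 and Cdt1 are highest below the limit, the genes of mitosis are highest in the last range by construction, and Mxd4, Ccnd2, Cdkn2a and Timp3 are highest below 2.

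The dividing cells were also ordered by the share of late genes. Each cell was placed by the part of its mitotic UMIs that came from Ccnb1, Plk1, Cdc20, Aurka, Cenpa and Cenpf, in 4 bins of equal size per library. Hist1h2ap stood at 997, 351, 77.1 and 42.2 CPM from the first to the last bin uninjured and at 590, 321, 64.6 and 21.8 CPM at day 3, a last-to-first ratio of 0.0423 (0.0343 to 0.0517) and 0.037 (0.0308 to 0.044). The linker histone gene Hist1h1e ran from 77.6 to 4.31 CPM and from 78.6 to 3.67 CPM. The sliding clamp Pcna ran from 76.4 to 31.9 CPM and from 68.9 to 25.8 CPM, and the maintenance methyltransferase Dnmt1 from 77.3 to 27.6 CPM and from 105 to 44.5 CPM. These 4 genes were picked from those with the lowest last-to-first ratios in both libraries. Their fall over the bins is therefore a description and supports no order.

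Other genes were higher in the last bin, and those named here were chosen after their values were seen. Kif20a, a kinesin of the central spindle, ran from 37.3 to 98.6 CPM uninjured and from 37.3 to 84.5 CPM at day 3. Cdkn3, a phosphatase of the cyclin-dependent kinases, ran from 58.7 to 148 CPM and from 19.8 to 61.5 CPM, and Knstrn, a kinetochore adaptor, was 3.04-fold and 2.19-fold higher in the last than in the first bin. Nupr1, a small stress-induced chromatin protein, ran from 80.7 to 155 CPM and from 37.6 to 81.0 CPM.

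The levels of Top2a and Aurkb over the bins are a description only, since both count in the total from which the late share is taken. Top2a stood at 345, 334, 252 and 56.0 CPM uninjured and at 528, 499, 471 and 208 CPM at day 3. Aurkb, the kinase of the chromosomal passenger complex, stood at 99.3, 89.2, 62.5 and 12.5 CPM and at 82.4, 85.1, 78.2 and 32.3 CPM. Cells of the last bin were also smaller in RNA, with medians of 34752, 37048, 31413 and 23686 UMIs over the 4 uninjured bins and 37218, 42158, 42093 and 27321 at day 3. The last bin was the lowest of the 4 in both libraries. Mxd4 was at 22.3 CPM in the first bin and 38.3 CPM in the last uninjured, and at 14.1 and 22.2 CPM at day 3, ratios of 1.72 (1.25 to 2.37) and 1.57 (1.20 to 2.05).

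The share of dividing cells differed between clusters of lineage cells. When lineage cells were clustered on genes little correlated with the score, dividing cells made up between 11.0% and 32.8% of the 8 uninjured clusters. The highest share was in cluster 1, led by Cavin2 and Hmga2, the gene of an architectural chromatin protein, with 136 of 415 cells (95% interval 28.3 to 37.5). At day 3 the share ran from 8.96% to 38.8% over 10 clusters, highest in cluster 5, led by Gas1, Hist1h2ap and Pclaf and with Mki67 among its 8 leading genes, with 92 of 237 cells (32.6 to 45.3), and lowest in cluster 8, led by the osteoclast genes Acp5 and Mmp9. Cluster 3 of day 3, led by Nppc, Mmp3 and Il33, had 11.8%. Cell cycle genes such as Rrm2 and Hist1h2ap were still among the leading genes of clusters 1 and 7 uninjured and of cluster 5 at day 3. The clusters thus still differed in the cycle, and their shares of dividing cells can in part restate it. Mki67 and the rest of the 15 genes of the score, with the cell cycle lists, were left out of the clustering itself. Leading genes were read afterwards without that exclusion. The place of Mki67 among them thus in part restates the share of dividing cells in cluster 5.

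Several matrix and osteogenic genes were lower in uninjured dividing cells. Of the fibrillar collagen and matrix genes at 10 CPM or more, 8 of 21 were at least 2-fold lower uninjured, against 3.34% of all genes, and 1 of 19, Fn1, at day 3, against 1.57%, with medians of -0.91 and -0.49. Col1a1, the main bone collagen gene, stood at 1050 and 2214 CPM uninjured and 195 and 310 CPM at day 3. Lumican (Lum), a collagen-binding proteoglycan, was at 11.4 and 60.4 CPM uninjured, a ratio of 0.188 (0.157 to 0.224), and 0.616 at day 3. Of the osteogenic and chondrogenic genes 5 of 8 were lower uninjured and 1 of 5, Spp1, at day 3. Neither Fn1 nor Spp1 passed 2-fold at day 3 with matched clusters. Ibsp, a protein of mineralizing matrix, was at 2.52 and 29.6 CPM uninjured, and Sox9, the chondrogenic factor, at 38.8 and 95.8 CPM, while Runx2, the osteogenic factor, was at 30.2 and 35.9 CPM uninjured and 40.3 and 31.1 CPM at day 3. Contractile genes did not pass 2-fold in either library, with Acta2 at 2256 and 1676 CPM uninjured and 723 and 784 CPM at day 3.

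With comparison cells matched to the dividing cells' clusters, the count of lower genes was 145 in the uninjured library and 83 at day 3, and with cells matched on depth it was 166 and 134. The counts of higher genes were 423 and 404, and 473 and 463. In the uninjured library Col1a1, Col12a1, Fmod, Postn and Ctsk no longer passed 2-fold with matched clusters, nor did another gene of the osteogenic list. With matched depth Col12a1, Dcn, Sox9, Ctsk and Cxcl12 no longer passed it. Many of the matrix and osteogenic genes lower in uninjured dividing cells thus depended on the comparison cells.

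The genes of the fracture response were listed with the difference between these 2 libraries known, so their direction in dividing cells is a description and supports nothing. All 18 genes reported higher after fracture were at least 2-fold higher at day 3 in dividing and in comparison cells (19.6% of 8177 and 18.6% of 8083 genes were). Bmp2, a bone morphogenetic protein, stood at 2.11 CPM in uninjured and 60.7 CPM in day-3 dividing cells, and at 2.98 and 151 CPM in comparison cells. Spp1, the gene of osteopontin, was at 1777 and 10865 CPM in dividing cells and at 1762 and 22952 CPM in comparison cells. Cebpb, a transcription factor, was at 9.42 and 240 CPM against 11.7 and 222 CPM. Of the 18 genes reported lower after fracture, 17 were at least 2-fold lower in day-3 dividing cells, all but Hp at 7.96 and 4.28 CPM, and 18 in comparison cells (5.17% and 7.93% of all genes were).

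Within the day-3 library, several of these genes were lower in dividing than in comparison cells. Bmp2 (0.402, 0.382 to 0.423), Mmp3, a matrix metalloproteinase (0.273, 0.259 to 0.288), the cytokine Il11 (0.493, 0.474 to 0.513), the semaphorin Sema7a (0.482, 0.452 to 0.512) and Spp1 (0.473, 0.472 to 0.475) passed 2-fold, 5 of 18 genes, where 1.57% of all genes did. Ramp3 (1.12) and Cebpb (1.08) were the only members of the list above 1. Uninjured, none of the 9 genes at 10 CPM or more passed 2-fold. Mmp3, Sema7a and Spp1 no longer passed it at day 3 with matched clusters. Spp1 also lost it after thinning, and Sema7a with a limit of 10 per 10000 for dividing cells. Il11 did not pass without the clusters led by myeloid genes. It failed in several other recounts too, among them thinning, equal weight per cell and the limit of 10 EGFP UMIs per 10000. Bmp2 passed it with matched clusters and without the clusters led by myeloid genes.

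**Figure D5:**
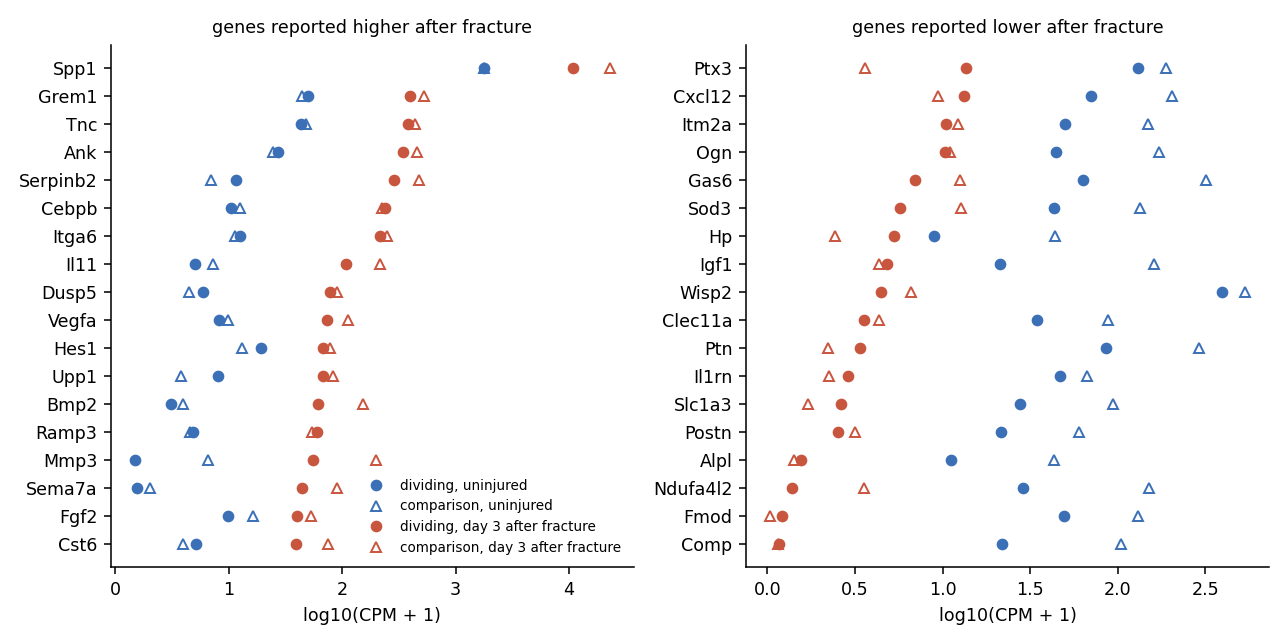
Levels of the 18 genes reported higher (left) and the 18 reported lower (right) after fracture, as log10 of CPM + 1 (horizontal axis), in dividing cells (filled circles) and comparison cells (open triangles) of the uninjured (blue) and day-3 (red) libraries. The libraries lie apart in both classes, as for Bmp2 at 2.11 and 60.7 CPM in dividing cells; Hp in dividing cells (7.96 and 4.28 CPM) is the closest pair.

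Of the 18 genes reported lower after fracture, 15 were also at least 2-fold lower in dividing than in comparison cells of the uninjured library, against 3.34% of all genes, with a median log2 ratio of -1.71. Clec11a, Fmod and Postn no longer passed 2-fold with matched clusters, and Cxcl12, Ptn, Slc1a3 and Sod3 did not with matched depth. Fmod, Postn, Comp, Cxcl12 and Alpl also belong to the matrix, tendon, progenitor or osteogenic lists. Igf1, which encodes an insulin-like growth factor, stood at 20.2 in dividing and 161 CPM in comparison cells, a ratio of 0.126 (0.11 to 0.143), and Gas6, a ligand of receptor tyrosine kinases, at 62.1 and 316 CPM, 0.196 (0.182 to 0.212). At day 3 Igf1 was at 3.80 and 3.36 CPM and Gas6 at 5.93 and 11.6 CPM, and 12 of the 18 genes were under 10 CPM in both classes. The genes whose ratios differed most between the libraries included Ptx3, a secreted pentraxin, at 129 and 188 CPM uninjured and 12.6 and 2.62 CPM at day 3. On the other side stood the chemokine Ccl2, at 197 and 137 CPM uninjured and 335 and 731 CPM at day 3, and Crabp1, a retinoid-binding protein, at 76.4 and 54.6 CPM and 269 and 633 CPM. With 1 library each, these differences between libraries were not tested.

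Dividing macrophages gave a comparison from the same libraries. The spindle genes had medians of 4.59 and 5.12 on the log2 scale in macrophages, against 5.20 and 5.31 in the lineage. The replication genes had 0.44 and 1.30, against 1.95 and 1.76, and their summed level in comparison macrophages was 1186 and 1044 CPM, against 422 and 479 CPM in comparison lineage cells. Mybl2 was 2.55-fold and 8.54-fold higher in dividing macrophages, against 20.1-fold and 14.8-fold in the lineage. Ccnd2 (0.606 and 0.73) and Mxd4 (0.362 and 0.256) were also lower in dividing macrophages, while Cdkn2a had ratios of 0.747 and 1.44, and Timp3 0.354 and 0.851. Dividing macrophages were shallower, with medians of 12431 and 8970 UMIs, and the differences between the 2 cell types were not tested.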

How the data were processed

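Single-cell RNA was measured in 2 libraries with the 10x 3' v2 kit, 20000 cells loaded, per the labels' protocols; the labels give the molecule as genomic DNA. The deposited values were unnormalized UMI counts of 31055 features in each barcode; their whole numbers and the file headers show this. Per the submitters' processing notes, Cell Ranger, Seurat 4.0.1 and build mm10 were used (software 3.1.0 in the matrix header); a rule for calling cells was not found among these sources.

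Barcodes with at least 500 genes, 3000 UMIs and at most 10% mitochondrial UMIs were kept. UMIs were summed per class and scaled to CPM, and a ratio of CPM has an exact conditional binomial 95% interval, which covers counting error only. A gene counted as higher or lower at 2-fold and 10 CPM in the higher class. With 1 library per condition no test was made. Doublets were scored with Scrublet and kept; removing the highest scores (0.8% per 1000 barcodes) was an alternative. For the clusters of lineage cells the 2000 most variable genes were taken. From these the 15 genes, the cell cycle lists and genes with an absolute correlation to the score over 0.2 were removed. Clustering used 20 components, 15 neighbours and Leiden resolution 0.5. Ratios were tested on simulated data.

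The members and the 28 lists were chosen with earlier results of these data known. Named genes were the 15 of the rule, the 12 highest and 12 lowest shared ratios at 50 CPM outside the cell cycle lists, the 2 highest and 2 lowest of each list, the 6 largest and 6 smallest differences between libraries, lineage genes and both injury lists. Cdkn1a and the genes along the score and the late order were chosen after their values were seen. Motifs were searched in RefSeq promoters (GRCm38.p6), and exons were those of GENCODE for GRCm38. Clusters came from scanpy 1.11.5 and leidenalg 0.10.2, intervals from scipy 1.17.1, and TMM factors from edgeR 4.0.16, under Python 3.11.15. Values of a few genes are not reported here, although they stay in the counts.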

Additional observations from a re-analysis of the deposited data

Results flagged for a closer look

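Of the 212 named genes, 28 had a ratio of dividing over comparison cells above 1 in one library and below 1 in the other, with both counting intervals apart from 1. The differences were not tested, and 27 of these genes are given here. Values here are the log2 ratio at day 3 minus that of the uninjured library. Among the genes lower uninjured and higher at day 3, the value was 4.00 for Hp, 3.97 for Fmod, 3.01 for Slc1a3, 2.80 for Ptx3, 2.72 for Ptn, 2.64 for Thbs4, 2.61 for H19 and 2.08 for Cxcl12. It was 1.65 for Gas1, 1.10 for Il1rn, 0.62 for Runx2 and 0.43 for Tyrobp. Among the genes higher uninjured and lower at day 3, it was -1.78 for Lmod1, -1.72 for Crabp1, -1.69 for Tinagl1, -1.65 for Ccl2, -1.61 for Upp1, -1.58 for Serpinb2 and -1.12 for Twist2. It was -0.80 for Hes1, -0.74 for Dusp5, -0.70 for Tpm2, -0.64 for Myl9, -0.60 for Klf4, -0.58 for Adm, and -0.55 for both Acta2 and Grem1. With matched depth the uninjured ratios of H19, Ptn, Slc1a3, Cxcl12 and Gas1 no longer passed 2-fold, and with matched clusters or in male cells those of Ccl2, Crabp1 and Tinagl1 at day 3 did not. With matched clusters the uninjured ratios of Fmod, H19 and Gas1 no longer passed it either. H19, Ptn, Slc1a3, Hp, Fmod, Il1rn, Thbs4 and Lmod1 were under 10 CPM in both classes of day 3. There Slc1a3 stood at 1.64 and 0.717 CPM, and Fmod at 0.206 and 0.035 CPM on 6 and 2 UMIs. Upp1 and Dusp5 were under 10 CPM in both classes of the uninjured library.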

How the results depend on the processing

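No paired analysis was possible because there is 1 library per condition. Alternatives changed 1 choice at a time. The share of dividing cells was 28.7% and 35.0% with a limit of 10 per 10000, 4.59% and 5.55% with a limit of 40, and 19.3% and 23.5% after thinning, uninjured and day 3. It was 18.3% in male and 22.4% in female cells of day 3. The count of higher genes was 178 and 147 with a minimum of 50 CPM, and that of lower genes 68 and 37. The count of lower genes was 432 uninjured after thinning, 166 uninjured with depth-matched and 145 and 83 with cluster-matched comparison cells. All other counts of genes stayed within 1.5 times, under TMM scaling, equal weight per cell, doublet removal, 10000 UMIs, 10 EGFP UMIs per 10000, a stricter limit on macrophage RNA, either sex and, chosen after seeing the data, without clusters led by myeloid genes.

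The genes that reversed were those of other cell types. On the log2 scale S100a8 and S100a9, lower uninjured, stood at 0.028 and 0.47 with 10000 UMIs, 0.21 and 0.60 with more EGFP, 0.27 and 0.41 with the stricter macrophage limit and 0.070 and 0.59 without the clusters led by myeloid genes. Mmp9 stood at 0.13 with the stricter limit and Acp5 at 0.0076 without those clusters. At day 3 Ngp, S100a8 and S100a9 stood at 0.69, 0.79 and 0.75 with a limit of 10 and 0.61, 0.71 and 0.60 after thinning. Ngp stood at 0.34 with the stricter limit and Elane, higher with all cells, at -0.79 without the clusters. The cause was not tested. Depth limits genes under 10 CPM, and intervals cover counting error only.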

Other observations

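Genes of other cell types were also measured in dividing cells, at low levels. Neutrophil markers summed to 10.1 CPM in dividing and 46.3 CPM in comparison cells of the uninjured library and to 131 and 267 CPM at day 3, with S100a8 at 5.12 and 17.9 CPM and at 56.9 and 125 CPM. Elane, an enzyme of early neutrophil granules, went the other way at day 3, at 11.7 and 4.01 CPM. Without the clusters led by myeloid genes neither S100a8 nor Elane passed 2-fold. Osteoclast markers summed to 20.8 and 63.1 CPM uninjured and to 58.0 and 104 CPM at day 3. Endothelial markers summed to between 11.1 and 12.9 CPM in the 4 classes. S100b, a Schwann cell marker also found in other cells, was at 7.31 and 21.0 CPM uninjured and 3.01 and 7.58 CPM at day 3. Tendon genes were measured at 10 CPM or more only in the uninjured library, where Comp, a cartilage and tendon matrix protein, stood at 20.7 in dividing and 104 CPM in comparison cells and Scx, the tendon transcription factor, at 29.9 and 42.6 CPM. Among skeletal progenitor and surface genes 2 of 15 were at least 2-fold lower uninjured, against 3.34% of all genes. They were Cxcl12 at 69.5 and 203 CPM and Ctsk at 29.4 and 64.2 CPM, neither of them with matched depth. At day 3 none of 17 was, against 1.57% of all genes, and Ly6a stood at 134 and 260 CPM.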
